A study of Homo sapiens with 6 samples.

Results

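The 43 genes described here encode the machinery of homologous recombination, the Fanconi anaemia pathway and the damage checkpoint. They were chosen by name, from a list of recombination, Fanconi and checkpoint genes, among the 58735 genes of the deposited table, and each name matched 1 row. The cells were AGS, an established human gastric adenocarcinoma line labelled wild type, transfected with a lipid reagent and harvested 48 h later. The siNC group of 3 libraries received a control siRNA and the siRBM8A group of 3 libraries an siRNA against RBM8A. The product of RBM8A, Y14, belongs to the core of the exon junction complex, which marks spliced mRNA. RNA was selected by its poly-A tail and the samples carry a single batch label. The replicates are described as biological, and the results concern 1 cell line under transient knockdown. The question of the comparison is how transcript levels change once RBM8A is depleted.

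Homologous recombination repairs a broken chromosome by copying the intact sister, so it acts mainly after DNA replication. The ends are cut back to single strands, BRCA1 with PALB2 and BRCA2 prepares them for strand exchange, mediator proteins support that exchange, and helicases and nucleases take apart the joined molecules. The Fanconi pathway uses the same machinery to repair links between DNA strands: a core complex of several subunits attaches ubiquitin to the pair FANCD2 and FANCI. The kinases ATM and ATR signal breaks and stalled forks to CHEK2 and CHEK1, which hold the cell cycle.

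Between 14838527 and 16561306 gene fragments lay behind each library, recovered from the steps of the FPKM values (fragments scaled by exon length and by library size). RBM8A stood at 15.3, 13.2 and 14.8 FPKM in the siNC libraries and at 3.25, 2.23 and 3.38 FPKM in the siRBM8A libraries, which left 20.5% of the control level (log2 fold change -1.97, SE 0.142, limma, adjusted p = 0.00544). Its two-sided exact permutation p was 0.1, and 3 libraries against 3 cannot give a smaller one. Both replicate 2 libraries stood apart: between replicates of a group, chi-square over its degrees of freedom was 15.9 to 54.6 for pairs with replicate 2, against 4.29 and 7.80 for the others. All 6 epithelial markers (EPCAM, KRT8, KRT18, KRT19, CLDN4, ELF3) reached 1 FPKM, with sums of 1724 to 2200 FPKM in siNC and 1688 to 2346 FPKM in siRBM8A. Of the leukocyte markers, PTPRC was at 0 in every library and LYZ alone reached 1 FPKM, at 129 to 145 FPKM in siNC and 93.9 to 107 FPKM in siRBM8A. The part of this lower LYZ level in the results was not tested. Among the fibroblast markers COL1A1 alone reached 1 FPKM, with list sums of 3.42 to 4.66 FPKM in siNC and 3.45 to 4.53 FPKM in siRBM8A, and the endothelial markers summed to at most 0.101 FPKM.

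The recombination genes moved in both directions by modest amounts. RAD51D and RAD52, which act on single-stranded DNA during strand exchange, and FANCE, a subunit of the Fanconi core complex, rose in the siRBM8A libraries, and TP53BP1, which protects broken ends from resection, fell. These 4 were the members called by limma on log2(FPKM + 1) at a Benjamini-Hochberg adjusted p under 0.05 over all tested genes. They were 4 of 42 tested members, or 9.52%, while 5.59% of all 12678 tested genes were called. Genes had to reach a mean of 1 FPKM to be tested, and RAD54B alone did not. The 3 upward calls compare with 2.41% of all genes called upward and the 1 downward call with 3.19% called downward. With the replicate number added to the fit as a block, limma called 18 members, 13 upward and 5 downward, or 42.9%, and it called 40.2% of all genes. With the block, the share of members called was thus close to that of all genes. In the blocked fit 31.0% of the members rose and 11.9% fell, beside 18.9% and 21.3% of all genes. The groups did not overlap for 14 members, or 33.3%, which is near the 31.3% of all tested genes, with 9 members higher and 5 lower in siRBM8A beside 14.8% and 16.5% of all genes. The median log2 fold change of the members was 0.04, against -0.01 for all tested genes. In bulk RNA, a change in the share of cells that are in a given cell cycle phase and a change in transcripts per cell cannot be told apart.

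The calls depended on single libraries, for the members as for all genes. All 4 members lost their call without siNC replicate 1, siNC replicate 2, siNC replicate 3 or siRBM8A replicate 3, when 0 members were called, and without siRBM8A replicate 1 FANCE alone kept it. Without siRBM8A replicate 2 RAD51D, RAD52 and TP53BP1 kept it and FANCE did not. With 1 library left out, 13, 124, 7 and 2 of all genes were called without siNC replicates 1, 2 and 3 and siRBM8A replicate 3, and 394 and 622 without siRBM8A replicates 1 and 2. The log2 fold changes moved little when 1 library was left out: they ranged from 0.52 to 0.60 for RAD51D, 0.46 to 0.53 for RAD52, 0.45 to 0.59 for FANCE and -0.51 to -0.48 for TP53BP1. Without a filter on low values TP53BP1 alone was called. The 4 members kept their direction in all 17 alternatives. Each library was also corrected for the GC content of the transcripts. This correction called 19 of the 42 tested members, 16 upward and 3 downward. Of all genes it called 31.9% (15.7% upward and 16.2% downward). It used no block, and it called every member called with the block except NBN and TOPBP1. With the correction and the replicate block together 21 of the 42 tested members were called, 16 upward and 5 downward. Of all genes 40.7% were called (19.9% upward and 20.7% downward). Limma-voom on recovered fragments called 6 of the 42 tested members, 5 upward and 1 downward. Of all genes it called 8.01% (4.41% upward and 3.6% downward). Over all genes, 305 of the 709 limma calls were upward, against 559 of the 1015 limma-voom calls (55.1%). The p with the block is printed where it changes a call, since deviations of libraries with the same replicate number correlated over genes. These correlations were 0.507, 0.663 and 0.102 for replicates 1, 2 and 3. Replicate 3 of siNC and of siRBM8A correlated more with replicate 1 of the other group, at 0.258 and 0.187.

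**Figure D1:**
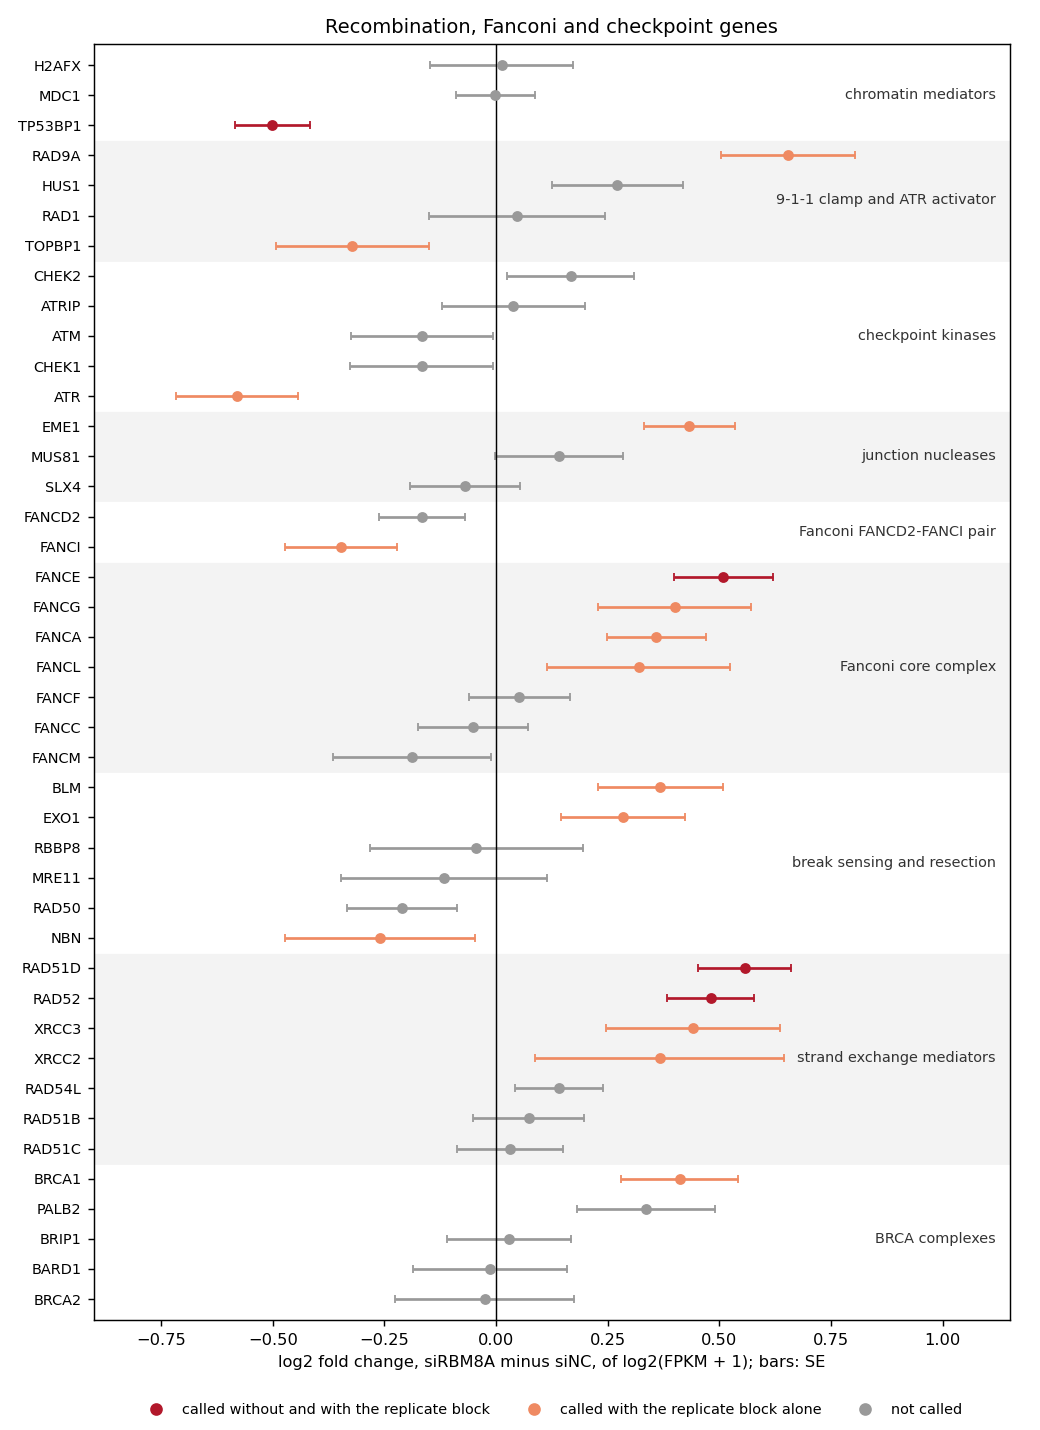
Log2 fold change of log2(FPKM + 1), siRBM8A minus siNC, for the 42 tested members grouped by role (horizontal axis; bars are the SE of the limma fit, n = 3 libraries a group). Colours show the limma fits without GC correction. TP53BP1, FANCE, RAD51D and RAD52 were called with and without the replicate block, and the other coloured points with the block and not without it.

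Promoter sequence was read for 38 of the 43 members from RefSeq (GRCh38.p14), as 250 bases before to 50 bases after the annotated start. Many S phase genes are known to be driven by E2F factors, so the E2F words TTTGGCGC, TTTGCCGC, TTTCGCGC and TTTCCCGC were searched on both strands. Of the member promoters 6 held one, or 15.8%, against 3.31% of all 35116 RefSeq promoters and 4.10% of the 22199 promoters of protein-coding genes. Of the 6, XRCC2, EXO1 and FANCA were among the 13 members with a promoter that rose with the block. TOPBP1 was among the 3 that fell with it, and FANCC and FANCD2 were among the 22 not called. No promoter was available for RAD54B, H2AFX, HUS1, FANCI and NBN, and the last of these, FANCI and NBN, fell with the block. The words TTTGAA and TTCGAA of the CHR element, known from genes of G2 and mitosis, stood in 4 of the 38 member promoters, or 10.5%, against 16.4% of all and 13.7% of those of protein-coding genes, and overlapped no E2F word. The windows of 30 bases around each E2F word are shown to let the members that rose, fell or were not called be compared letter by letter. Each is written 5′ to 3′ on the strand of its gene, with the word in capitals. They lie at chr7:152676102-152676131 and chr1:241848197-241848226, where the word begins 21 and 4 bases after the start base, at chr16:89816801-89816830, where it begins 172 bases before it, at chr9:95317863-95317892 and chr9:95317737-95317766, 172 and 46 bases before it, at chr3:10026424-10026453, 2 bases before it, and at chr3:133661930-133661959, 7 bases before it. The genes XRCC2, FANCA, FANCC and TOPBP1 lie on the minus strand.
XRCC2: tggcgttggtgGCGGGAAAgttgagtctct
EXO1: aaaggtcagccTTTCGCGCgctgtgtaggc
FANCA: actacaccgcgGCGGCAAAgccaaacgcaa
FANCC: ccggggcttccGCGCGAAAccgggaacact
FANCC second: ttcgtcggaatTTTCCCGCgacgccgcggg
FANCD2: cgtcgggcctgGCGGGAAAgtcgaaaacta
TOPBP1: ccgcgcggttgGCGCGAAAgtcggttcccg
The same word, GCGGGAAA on the gene's strand, stood in XRCC2 and FANCD2, and GCGCGAAA in FANCC and TOPBP1. A match is a description of these letters and shows no binding.

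Among the genes that sense and cut back broken ends, the exonuclease gene EXO1 and the helicase gene BLM were higher in siRBM8A. The sensor gene NBN was lower. Each was called with the replicate block. Without it EXO1 and BLM were called under the GC correction alone (adjusted p = 0.00232 and 0.00557, limma), and NBN was not. Limma without the block or the GC correction called 0 of the 6 genes. Of them 1 had an unadjusted p under 0.05, and limma-voom called 0. Of all tested genes limma called 5.59% without the block and 40.2% with it, where 3 of the 6 were called. MRE11, RAD50 and NBN form the complex that binds ends first, RBBP8 (CtIP) starts their resection, and EXO1 and BLM extend it. EXO1 was at 8.22, 6.57 and 7.92 FPKM in the siNC libraries and at 10.9, 7.99 and 9.47 FPKM in the siRBM8A libraries (log2 fold change 0.28, SE 0.138, adjusted p = 0.246; adjusted p = 0.0156 with the replicate block, range over the alternatives 0.00197 to 0.438). BLM was at 3.35, 2.34 and 3.16 FPKM in the siNC libraries and at 4.67, 3.72 and 3.85 FPKM in the siRBM8A libraries (log2 fold change 0.37, SE 0.140, adjusted p = 0.159; adjusted p = 0.0214 with the replicate block, range over the alternatives 0.000635 to 0.325). The BLM groups did not overlap, while the replicate 2 library of siRBM8A lay below 1 siNC library of EXO1. NBN was at 9.12, 6.21 and 7.67 FPKM in the siNC libraries and at 8.15, 4.46 and 6.37 FPKM in the siRBM8A libraries (log2 fold change -0.26, SE 0.213, adjusted p = 0.479; adjusted p = 0.0354 with the replicate block, range over the alternatives 0.0196 to 0.851). NBN was lower in siRBM8A in each of the 3 pairs of replicates, although the groups overlapped, and the GC correction gave a log2 fold change of -0.04. MRE11 was at a mean of 5.70 ± 1.39 FPKM in siNC against 5.22 ± 1.51 FPKM in siRBM8A (SD, n = 3; log2 fold change -0.12, adjusted p = 0.785), and RBBP8 had a log2 fold change of -0.04 (adjusted p = 0.927), and the sign of both turned with the GC correction. RAD50, whose exons are shared with another gene on the same strand over 79.7% of their bases so that its value is uncertain, was at a mean of 1.19 ± 0.0558 FPKM in siNC against 0.891 ± 0.116 FPKM in siRBM8A (log2 fold change of -0.21, adjusted p = 0.325).

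Among BRCA1 and its partners, BRCA1 was higher in siRBM8A with the replicate block, and its binding partner BARD1 and BRCA2 showed log2 fold changes close to 0. Without the block or the GC correction limma called 0 of these 5 genes. Of them 1 had an unadjusted p under 0.05, and limma-voom called 0. Of all tested genes limma called 5.59% without the block and 40.2% with it, where 1 of the 5 was called. BRCA1 and BARD1 form a ubiquitin ligase, PALB2 bridges BRCA1 to BRCA2, and BRIP1 (FANCJ) is a helicase bound by BRCA1. BRCA1 was at 5.36, 4.37 and 5.36 FPKM in the siNC libraries and at 8.04, 6.00 and 7.07 FPKM in the siRBM8A libraries (log2 fold change 0.41, SE 0.131, adjusted p = 0.112; adjusted p = 0.00720 with the replicate block, range over the alternatives 3.40e-05 to 0.277). Every siRBM8A library lay above every siNC library, the smallest gap being between 5.36 and 6.00 FPKM. PALB2 was at 5.29, 4.87 and 5.29 FPKM in the siNC libraries and at 8.57, 5.39 and 6.65 FPKM in the siRBM8A libraries, again without overlap (log2 fold change 0.34, SE 0.154, adjusted p = 0.222, 0.0521 with the block and 0.00889 with the GC correction; range over the alternatives 0.00280 to 0.424). BRCA2 was at 3.79, 2.47 and 3.52 FPKM in the siNC libraries and at 3.79, 2.20 and 3.65 FPKM in the siRBM8A libraries (log2 fold change -0.03, SE 0.200, adjusted p = 0.951). The low values of BRCA2 in both groups were those of replicate 2, and the remaining libraries of the groups overlapped. BARD1 had a log2 fold change of -0.01 (SE 0.173, adjusted p = 0.968) and BRIP1 one of 0.03 (SE 0.139, adjusted p = 0.919). The sign of BRCA2 and of BARD1 turned with the GC correction, which moved the median of the 5 genes from 0.03 to 0.25. With the correction and the block BRIP1 was called upward at 0.25 (adjusted p = 0.0467; range over the alternatives 0.0467 to 0.994). Whether BRCA1 differed from its partners in response was not tested.

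The genes of the strand exchange mediators held 2 of the 3 upward calls without the replicate block and 4 of the 13 with it: RAD51D and RAD52 rose, and XRCC2 and XRCC3 were called upward with the replicate block as well, so that 2 of 7 tested genes rose without and 4 with the block, and 0 fell in either fit. Of all tested genes 2.41% rose and 3.19% fell without the block, and 18.9% rose and 21.3% fell with it. RAD51B, RAD51C, RAD51D and XRCC2 form one mediator complex, and RAD51C and XRCC3 another. RAD51D (ENSG00000185379, chromosome 17 from 35092208 to 35121522 on the minus strand in GRCh38) was at 1.77, 1.83 and 2.03 FPKM in the siNC libraries and at 3.28, 2.99 and 3.42 FPKM in the siRBM8A libraries. The lowest siRBM8A library, at 2.99 FPKM, lay well above the highest siNC library, at 2.03 FPKM (log2 fold change 0.56, SE 0.103, adjusted p = 0.0334; adjusted p = 0.00618 with the replicate block, range over the alternatives 3.30e-06 to 0.160). RAD52 (ENSG00000002016, chromosome 12 from 912077 to 990053 on the minus strand), which anneals single strands, was at 4.18, 4.74 and 4.17 FPKM in the siNC libraries and at 6.75, 6.03 and 6.67 FPKM in the siRBM8A libraries (log2 fold change 0.48, SE 0.0971, adjusted p = 0.0405; adjusted p = 0.00954 with the replicate block, range over the alternatives 0.000189 to 0.199). Its siRBM8A libraries all lay above its siNC libraries. XRCC2 was at 4.40, 2.36 and 4.19 FPKM in the siNC libraries and at 6.76, 3.10 and 5.36 FPKM in the siRBM8A libraries (log2 fold change 0.37, SE 0.279, adjusted p = 0.446; adjusted p = 0.0181 with the replicate block, range over the alternatives 0.000764 to 0.741). Its groups overlapped because both replicate 2 libraries were low, and each siRBM8A library was above the siNC library of the same number. XRCC3 was at 4.65, 7.14 and 5.41 FPKM in the siNC libraries and at 6.81, 10.4 and 7.26 FPKM in the siRBM8A libraries (log2 fold change 0.44, SE 0.194, adjusted p = 0.205; adjusted p = 0.00492 with the replicate block, range over the alternatives 2.04e-05 to 0.483). Here replicate 2 was high in both groups, and 76.7% of the XRCC3 exon bases are also covered by opposite-strand genes, so its value is uncertain. The other 2 subunits of these complexes had log2 fold changes of 0.07 for RAD51B (SE 0.125, adjusted p = 0.751) and 0.03 for RAD51C (SE 0.118, adjusted p = 0.893), at siNC means of 1.09 and 1.97 FPKM. RAD54L, a motor protein that remodels the joined DNA, was at 10.3, 11.8 and 10.8 FPKM in the siNC libraries and at 11.4, 13.0 and 12.1 FPKM in the siRBM8A libraries with 25.1% of its exon bases also covered on the opposite strand, higher in each pair of replicates and not called (log2 fold change 0.14, SE 0.0987, adjusted p = 0.409, 0.0637 with the block; range over the alternatives 0.0549 to 0.724). Its relative RAD54B was at 0.394 to 0.876 FPKM over the 6 libraries, on 155 fragments in siNC and 174 in siRBM8A, and was under the FPKM minimum for the test. Of the RAD54B exon bases 59.1% are also covered on the same strand, so its value is uncertain.

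**Figure D2:**
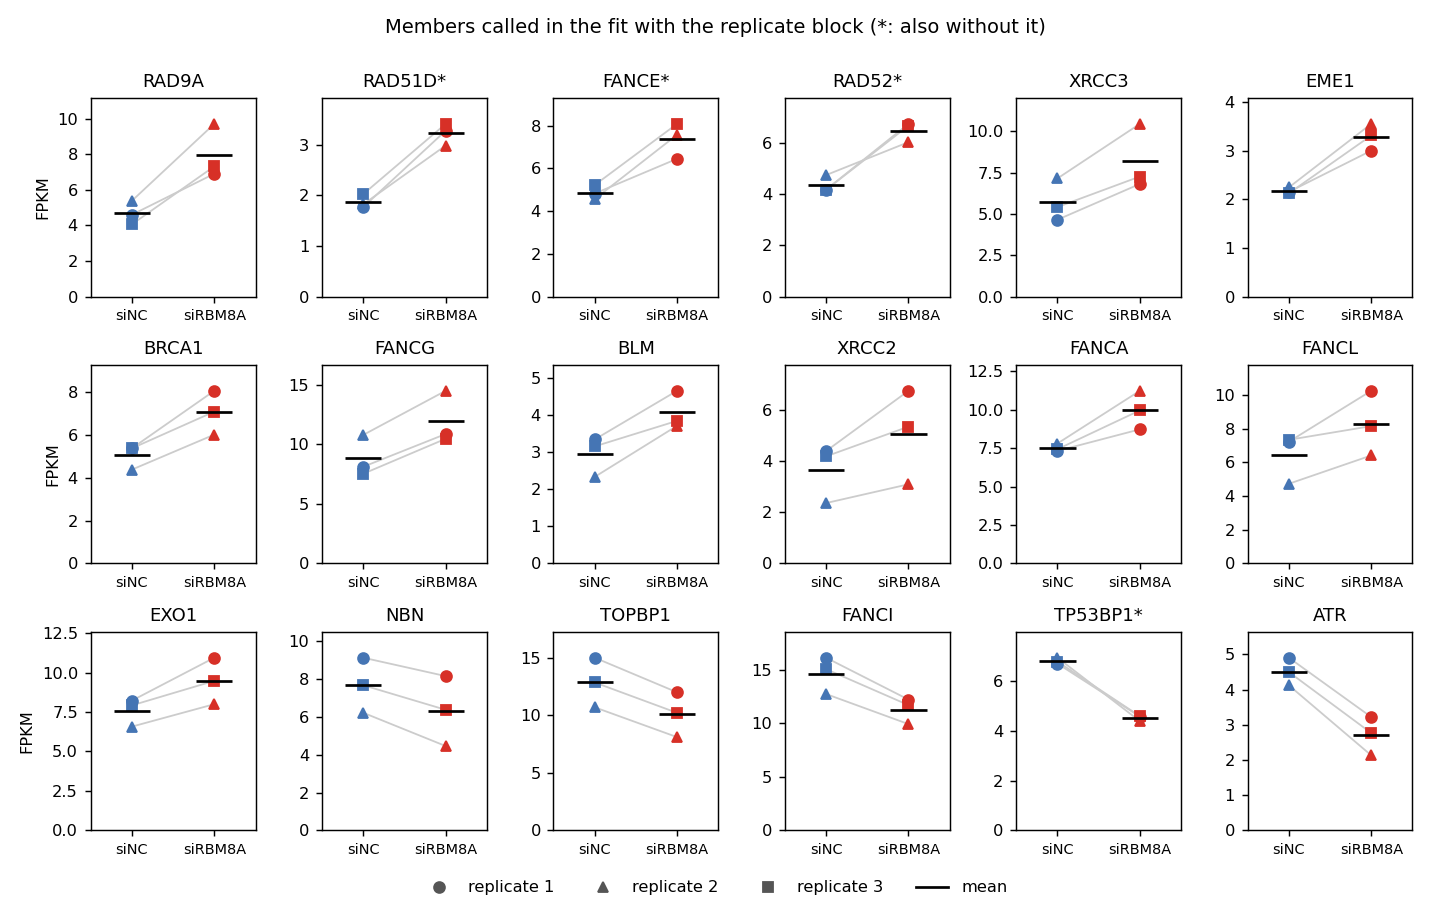
FPKM (vertical axes, from 0) in each siNC (blue) and siRBM8A (red) library for the 18 members called with the replicate block, ordered by log2 fold change. Symbols mark the replicate, grey lines join the same replicate number and black bars are group means (n = 3). An asterisk marks the 4 members also called without the block, in the limma fit without GC correction. In each panel the lines run in 1 direction.

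Of the Fanconi core complex, FANCE rose and FANCA, FANCG and FANCL were called upward with the replicate block, 1 of 7 genes without and 4 with the block, and 0 fell in either fit. The shares of all tested genes were 2.41% upward and 3.19% downward without the block, and 18.9% and 21.3% with it. FANCL carries the ubiquitin ligase activity, FANCE links the complex to FANCD2, and FANCA and FANCG form one of its modules. FANCE (ENSG00000112039, chromosome 6 from 35452356 to 35467103 on the plus strand) was at 4.82, 4.57 and 5.22 FPKM in the siNC libraries and at 6.45, 7.58 and 8.09 FPKM in the siRBM8A libraries (log2 fold change 0.51, SE 0.110, adjusted p = 0.0475; adjusted p = 0.00630 with the replicate block, range over the alternatives 0.000215 to 0.188). The siRBM8A libraries all lay above the siNC libraries. FANCA was at 7.32, 7.81 and 7.44 FPKM in the siNC libraries and at 8.73, 11.2 and 9.96 FPKM in the siRBM8A libraries (log2 fold change 0.36, SE 0.111, adjusted p = 0.103; adjusted p = 0.0127 with the replicate block, range over the alternatives 5.96e-05 to 0.316). FANCA was without overlap too, and 23.6% of its exon bases are overlapped on the opposite strand. FANCG was at 8.12, 10.8 and 7.53 FPKM in the siNC libraries and at 10.9, 14.5 and 10.5 FPKM in the siRBM8A libraries (log2 fold change 0.40, SE 0.171, adjusted p = 0.195; adjusted p = 0.00423 with the replicate block, range over the alternatives 0.000138 to 0.494). FANCL was at 7.23, 4.73 and 7.34 FPKM in the siNC libraries and at 10.3, 6.41 and 8.16 FPKM in the siRBM8A libraries (log2 fold change 0.32, SE 0.206, adjusted p = 0.373; adjusted p = 0.0275 with the replicate block, range over the alternatives 0.00698 to 0.645). For FANCG and FANCL the groups overlapped, since replicate 2 was the highest library of each group for FANCG and the lowest for FANCL, and both were higher in siRBM8A in each pair. Of the FANCL exon bases 19.7% are covered on the opposite strand as well. FANCM, the helicase that anchors the complex on DNA, was at 2.78, 1.68 and 2.22 FPKM in the siNC libraries and at 2.18, 1.37 and 1.93 FPKM in the siRBM8A libraries (log2 fold change -0.19, SE 0.176, adjusted p = 0.541), and its sign turned with the GC correction. FANCC and FANCF had log2 fold changes of -0.05 (SE 0.123, adjusted p = 0.826) and 0.05 (SE 0.113, adjusted p = 0.805). The core subunits therefore had log2 fold changes from -0.19 to 0.51.

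FANCI and FANCD2, the pair that the core complex modifies, had values on the opposite side from most of the core subunits. Limma called neither without the block or the GC correction (0 of 2, with 1 at an unadjusted p under 0.05 and 0 called by limma-voom). That fit called 3.19% of all tested genes downward. FANCI was called downward with the block, beside 21.3% of all genes, and with the GC correction, beside 16.2%. FANCI was at 16.1, 12.7 and 15.0 FPKM in the siNC libraries and at 12.2, 9.91 and 11.7 FPKM in the siRBM8A libraries (log2 fold change -0.35, SE 0.126, adjusted p = 0.144; adjusted p = 0.00533 with the replicate block, range over the alternatives 0.000170 to 0.388). All siRBM8A libraries were below all siNC libraries. FANCD2 was at 5.25, 4.96 and 5.08 FPKM in the siNC libraries and at 4.73, 3.99 and 4.62 FPKM in the siRBM8A libraries (log2 fold change -0.17, SE 0.0970, adjusted p = 0.327, 0.0955 with the block; range over the alternatives 0.0912 to 0.598). FANCD2 was without overlap as well, by a difference of 5.10 against 4.45 FPKM in the means, and it passed the threshold in 0 of the 17 alternatives. Whether the pair differed from the core complex in response was not tested.

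Of the nucleases that cut joined molecules, EME1 was called upward with the replicate block, by limma-voom and with the GC correction. Limma without the block or the correction called 0 of 3, with 1 at an unadjusted p under 0.05. With the block and by limma-voom 1 of 3 was called. Of all tested genes limma called 5.59% without the block and 40.2% with it, and limma-voom called 8.01%. EME1 is the partner of the nuclease MUS81, and SLX4 is the scaffold that binds MUS81. EME1 was at 2.15, 2.25 and 2.13 FPKM in the siNC libraries and at 3.00, 3.56 and 3.32 FPKM in the siRBM8A libraries (log2 fold change 0.43, SE 0.101, adjusted p = 0.0562; adjusted p = 0.0118 with the replicate block, range over the alternatives 0.00136 to 0.233). Its siRBM8A libraries were all above its siNC libraries, and genes on the opposite strand overlap 16.4% of its exon bases. MUS81 was at 5.82, 8.03 and 6.88 FPKM in the siNC libraries and at 6.88, 8.95 and 7.29 FPKM in the siRBM8A libraries (log2 fold change 0.14, SE 0.143, adjusted p = 0.577, 0.105 with the block; range over the alternatives 0.0519 to 0.926). MUS81 was higher in siRBM8A in each pair of replicates and its groups overlapped. SLX4 had a log2 fold change of -0.07 (SE 0.123, adjusted p = 0.757).

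Among the checkpoint kinases, ATR was lower in siRBM8A and was called with the replicate block and with the GC correction. Without either limma called 0 of 5 genes, with 1 at an unadjusted p under 0.05 and 0 called by limma-voom. Of all tested genes limma called 5.59% without the block and 40.2% with it, where 1 of the 5 was called. ATR responds to single-stranded DNA through its partner ATRIP and activates CHEK1, and ATM responds to breaks and activates CHEK2. ATR (ENSG00000175054, chromosome 3 from 142449235 to 142578826 on the minus strand) was at 4.90, 4.12 and 4.50 FPKM in the siNC libraries and at 3.22, 2.13 and 2.76 FPKM in the siRBM8A libraries, with a mean of 4.51 ± 0.392 FPKM in siNC against 2.70 ± 0.546 FPKM in siRBM8A (SD, n = 3). The highest siRBM8A library lay below the lowest siNC library (log2 fold change -0.58, SE 0.137, adjusted p = 0.0574; adjusted p = 0.00520 with the replicate block, range over the alternatives 7.63e-06 to 0.218). Of the ATR exon bases, 16.4% are also covered by genes on the opposite strand. ATRIP, with 27.9% of its exon bases shared with another gene on its strand, was at a mean of 2.66 ± 0.424 FPKM in siNC against 2.78 ± 0.680 FPKM in siRBM8A (log2 fold change 0.04, SE 0.160, adjusted p = 0.903), and its sign turned with the GC correction. ATM was at 1.94, 1.30 and 1.72 FPKM in the siNC libraries and at 1.65, 1.01 and 1.45 FPKM in the siRBM8A libraries (log2 fold change -0.17, SE 0.160, adjusted p = 0.551). ATM was lower in siRBM8A in each pair of replicates although the groups overlapped, and the GC correction gave it a value of 0.01. CHEK2 was at 6.73, 5.33 and 6.43 FPKM in the siNC libraries and at 8.26, 5.84 and 7.13 FPKM in the siRBM8A libraries (log2 fold change 0.17, SE 0.143, adjusted p = 0.499, 0.0783 with the block; range over the alternatives 0.0352 to 0.787). CHEK1 had a log2 fold change of -0.17 (SE 0.161, adjusted p = 0.554).

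In the clamp formed by RAD9A, RAD1 and HUS1, which is loaded at damaged DNA to activate ATR, RAD9A was higher in siRBM8A, and TOPBP1, the activator that binds the clamp, was lower, each called with the replicate block. Limma without the block or the GC correction called 0 of the 4 genes. Of them 1 had an unadjusted p under 0.05, and limma-voom called 1. Of all tested genes limma called 5.59% without the block and 40.2% with it, where 2 of the 4 were called. RAD9A was at 4.60, 5.38 and 4.06 FPKM in the siNC libraries and at 6.91, 9.71 and 7.32 FPKM in the siRBM8A libraries (log2 fold change 0.65, SE 0.151, adjusted p = 0.0554; adjusted p = 0.00347 with the replicate block, range over the alternatives 5.91e-06 to 0.220). It had the highest log2 fold change of the tested members, with no overlap between the groups. HUS1 was at 3.08, 2.66 and 3.24 FPKM in the siNC libraries and at 4.45, 2.97 and 4.14 FPKM in the siRBM8A libraries (log2 fold change 0.27, SE 0.146, adjusted p = 0.288, 0.0543 with the block and 0.00978 with the GC correction; range over the alternatives 0.00978 to 0.538). RAD1 had a log2 fold change of 0.05 (SE 0.198, adjusted p = 0.906), so the 3 subunits of the clamp ranged from 0.05 to 0.65. TOPBP1 was at 15.0, 10.7 and 12.8 FPKM in the siNC libraries and at 12.0, 8.09 and 10.2 FPKM in the siRBM8A libraries (log2 fold change -0.32, SE 0.171, adjusted p = 0.284; adjusted p = 0.00718 with the replicate block, range over the alternatives 0.000605 to 0.612). The TOPBP1 groups overlapped, and each siRBM8A library was below the siNC library of its number. With the GC correction and no block TOPBP1 was not called (log2 fold change -0.22, adjusted p = 0.0799, limma). RAD9A was called there (0.53, adjusted p = 0.00245).

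Of the proteins that mark chromatin around a break, TP53BP1 fell and the others showed log2 fold changes near 0. In this list 1 of 3 was called without and with the block, beside 5.59% and 40.2% of all tested genes. H2AFX encodes the histone H2AX, which ATM phosphorylates at breaks, MDC1 binds that mark, and TP53BP1 (53BP1) is then recruited and limits resection. TP53BP1 (ENSG00000067369, chromosome 15 from 43403061 to 43510728 on the minus strand) was at 6.71, 6.95 and 6.79 FPKM in the siNC libraries and at 4.58, 4.39 and 4.59 FPKM in the siRBM8A libraries, with a mean of 6.82 ± 0.120 FPKM in siNC against 4.52 ± 0.111 FPKM in siRBM8A (SD, n = 3). The libraries of each group lay close together and far from those of the other group (log2 fold change -0.50, SE 0.0839, adjusted p = 0.0273; adjusted p = 0.00383 with the replicate block, range over the alternatives 5.83e-06 to 0.164). It had the smallest adjusted p of the members without the block. Genes on the opposite strand overlap 28.7% of its exon bases, so with the strand setting unknown its value is uncertain. H2AFX, by far the most abundant member per length, was at a mean of 72.9 ± 8.67 FPKM in siNC against 74.2 ± 14.4 FPKM in siRBM8A (log2 fold change 0.01, SE 0.160, adjusted p = 0.968), and MDC1 at a mean of 5.95 ± 0.343 FPKM in siNC against 5.94 ± 0.106 FPKM in siRBM8A (log2 fold change -0.0015, SE 0.0884, adjusted p = 0.994). The signs of these 2 genes depended on the setting: that of H2AFX turned with the GC correction and that of MDC1 with median-ratio scaling.

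The members that fell with the replicate block had a longer exon union and more exons, by the median, than those that rose or were not called. The 5 that fell with the replicate block (ATR, TP53BP1, FANCI, TOPBP1 and NBN) had a median exon length of 7766 bases and a median of 28 exons in the annotated transcript with most exons. For the 13 that rose the medians were 4190 bases and 14 exons. Median GC content was 42.8% for those that fell and 48.4% for those that rose. The 24 that were not called had medians of 6662 bases and 15.5 exons, and they included the longest member, ATM, with 23972 bases and 64 exons, and FANCC with 12809 and BRCA2 with 12273 bases. Exon length is the union of all annotated exons of a gene. Across the 42 tested members, Spearman's rho of log2 fold change with exon length was -0.51, with exon number -0.54 and with GC content 0.43. Across all 12678 tested genes rho was -0.14 with exon length and -0.13 with exon number, and 0.37 with GC content over the 12672 genes that had a transcript sequence. After the GC correction the members' rho was -0.40 for length and -0.44 for exon number. These values describe genes measured in the same 6 libraries, and genes are not independent replicates. RAD51D, BRCA1 and FANCA were long genes among those that rose, the longest with 11304 bases of exon.

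**Figure D3:**
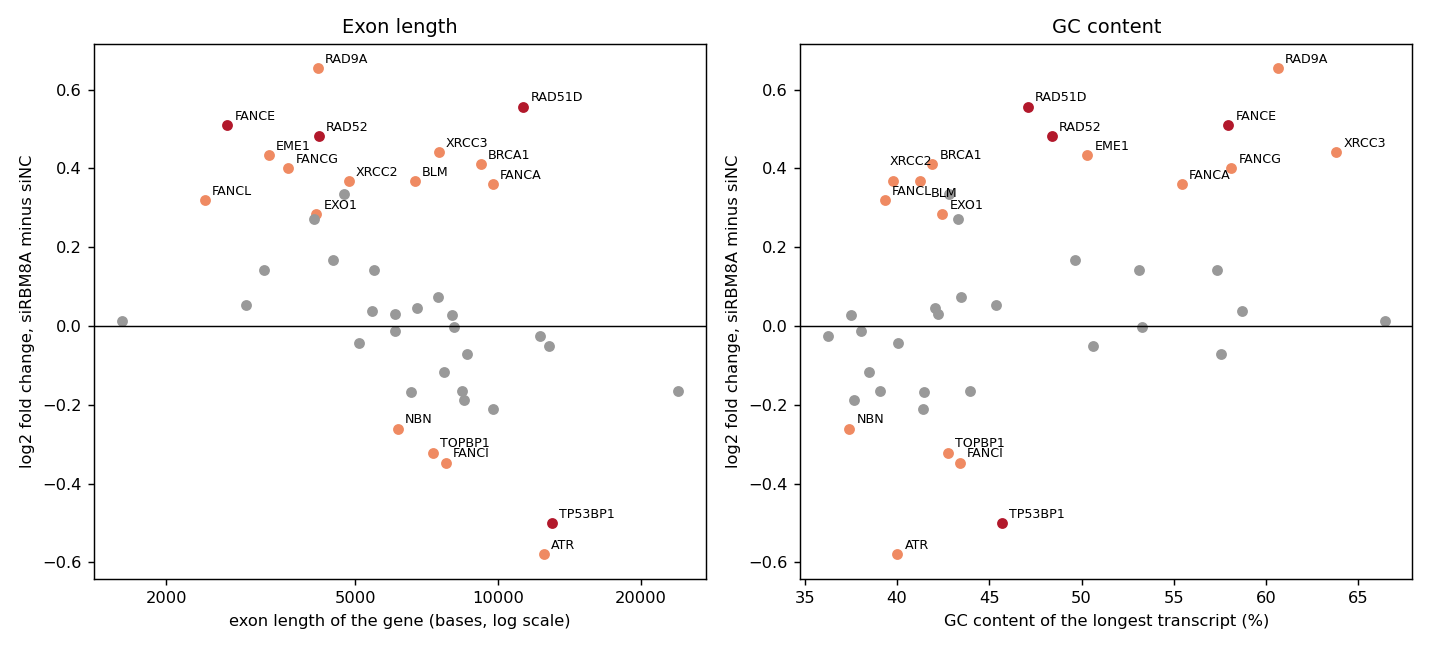
Log2 fold change (vertical axes) of the 42 tested members against exon length in bases (left, log scale) and GC content of the longest transcript in % (right). Colours show the limma fits without GC correction. Dark red points were called with and without the replicate block, orange points with the block and not without it and grey points were not called. TP53BP1 and ATR combined low fold changes with long exons, while the 42 points scatter widely.

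Nonsense-mediated decay, which the exon junction complex promotes, degrades transcripts with early stop codons, and annotated isoforms subject to it are common among the members. GENCODE 29 lists at least 1 such isoform for 35 of the 42 tested members, or 83.3%, against 43.9% of the 10439 tested protein-coding genes. The members have many annotated transcripts, among them 33 for BRCA1 and 32 for FANCA. Of the 13 members that rose with the replicate block 10 had one, as did the 5 that fell and 20 of the 24 that were not called. The median log2 fold change was 0.04 for members with such an isoform and 0.05 for those without. RAD51D had 7 of its 23 annotated transcripts in this class, RAD52 3 of 19, FANCE 1 of 2 and TP53BP1 3 of 17. The table holds 1 value per gene, so isoforms were not measured.

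With the replicate block, other genes of the same pathways also had calls in both directions. Of 54 tested genes on the 3 lists of further recombination, Fanconi and damage signalling genes, 2 rose and 0 fell without the block (13 at an unadjusted p under 0.05, 3 called by limma-voom), and 13 rose and 4 fell with it. Without and with the block, 3.70% and 31.5% of the 54 were called, less than the 5.59% and 40.2% of all tested genes. The median log2 fold change was 0.06. The 2 that rose were recombination genes. TONSL, which acts in repair at stalled forks, was at a mean of 12.6 ± 2.29 FPKM in siNC against 27.2 ± 6.63 FPKM in siRBM8A (SD, n = 3; log2 fold change 1.04, adjusted p = 0.0334), and RPA2, a subunit of the protein that coats single-stranded DNA, at a mean of 23.5 ± 0.689 FPKM in siNC against 37.3 ± 3.09 FPKM in siRBM8A (log2 fold change of 0.64, adjusted p = 0.0214). Both calls were lost when any 1 siNC library or siRBM8A replicate 3 was left out. EME2, a second partner of MUS81 with 30.0% of its exon bases overlapped on the opposite strand, had a log2 fold change of 0.64 (adjusted p = 0.0790) and SEM1, a small BRCA2 partner, one of -0.31 (adjusted p = 0.107), which was -0.02 with the GC correction. Of 13 Fanconi genes limma called 0 (4 at an unadjusted p under 0.05, 0 by limma-voom), and the smallest adjusted p were those of WDR48 (log2 fold change -0.37, adjusted p = 0.0911), CENPX (0.52, 0.114), the ubiquitin-conjugating enzyme gene UBE2T (0.41, 0.143) and ERCC1 (0.33, 0.149). Of 18 damage signalling genes limma called 0 (5 at an unadjusted p under 0.05, 0 by limma-voom), and the smallest adjusted p were those of the ubiquitin ligase gene RNF168 (0.39, 0.0661), TIPIN (0.59, 0.0677), PAXIP1 (0.36, 0.0787) and UIMC1 (0.35, 0.0846). TIPIN acts at replication forks and shares 21.0% of its exon bases with another gene on its strand, and UIMC1 (RAP80) brings the BRCA1-A complex to breaks.

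Genes of DNA replication and of mitosis moved in opposite directions, and the recombination genes, like all tested genes, had a median between theirs. Of 28 replication genes 4 rose (CDT1, which licenses origins, the clamp loader subunit gene RFC2, the flap nuclease gene FEN1 and the helicase subunit gene MCM3, with log2 fold changes of 1.21, 0.58, 0.61 and 0.55) and 0 fell, and the blocked fit called 19 upward and 0 downward. Their median log2 fold change was 0.39. Of 25 mitosis genes 2 fell (the spindle motor gene KIF11 at -0.96 and the checkpoint kinase gene BUB1 at -0.69) and 0 rose, and the blocked fit called 18 downward and 0 upward. Their median was -0.28. Of all tested genes 2.41% rose and 3.19% fell without the block, and 18.9% rose and 21.3% fell with it. The members' median of 0.04 lay between those of the 2 lists, as did the median of all tested genes, -0.01. None of the 6 replication and mitosis calls made without the block held without siNC replicate 1, siNC replicate 3 or siRBM8A replicate 3. The difference between the lists was not tested, and the part of cell cycle distribution in these values was not tested either.

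**Figure D4:**
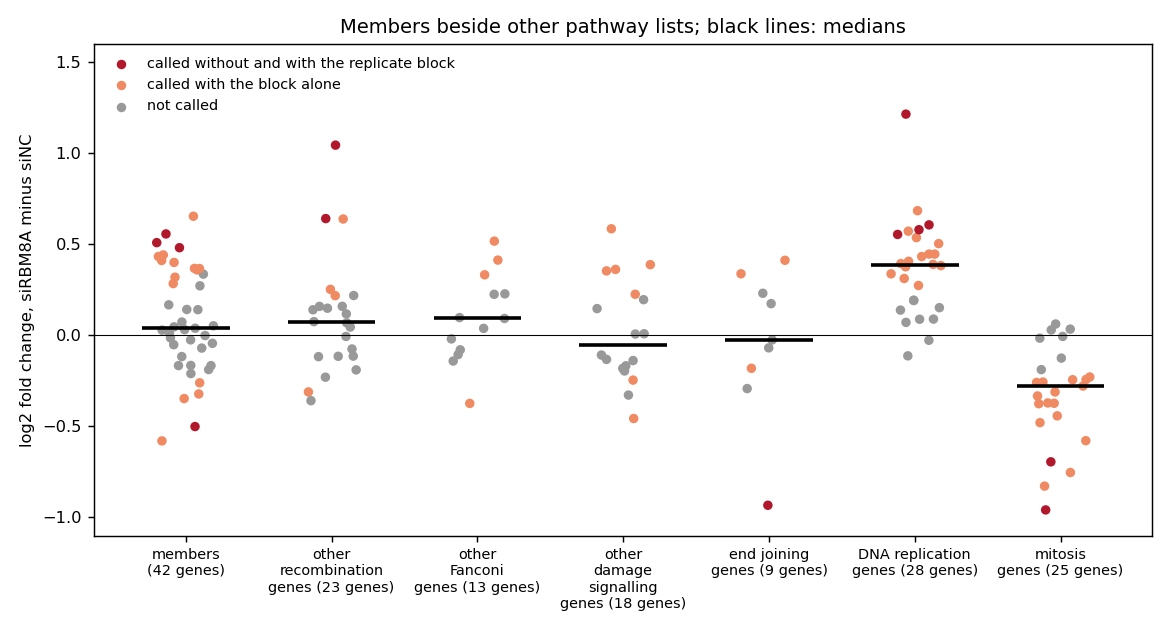
Log2 fold change, siRBM8A minus siNC (vertical axis), of each tested gene in the member list and in the 6 other lists, with the median of each list as a black line. The 42 members spread on both sides of 0, the replication genes lie mostly above 0 and the mitosis genes mostly below it.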

How the data were processed

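The deposited table holds 1 FPKM value per gene and library, made by the authors; HISAT2, StringTie and GRCh38 are named, per the submitters' processing notes, without versions, roles or order. Nothing in the sources used here gives the strand setting or any filter. All gene IDs (100%) matched GENCODE 29 (Ensembl 94). Whole fragments were recovered from FPKM steps. Values were tested as log2(FPKM + 1) with limma 3.58.1 in R 4.3.3 (moderated variances with a trend, no block) for genes whose mean reached 1 FPKM, with Benjamini-Hochberg adjustment over all tested genes and a threshold of 0.05. Deviations of libraries with the same replicate number correlated at 0.507, 0.663 and 0.102 over genes, all above 0.1. Libraries of 1 number were therefore taken as pairs, which comes from the data, since the labels give no shared batch or day for a number. The 0.102 of replicate 3 was below siNC replicate 3 with siRBM8A replicate 1 (0.258) and siNC replicate 1 with siRBM8A replicate 3 (0.187). Replicate 2 correlated negatively with every other number of the other group. The pairing of replicates 1 and 3 is thus less certain than that of replicate 2, and so are calls made with the block alone. The 17 alternatives covered pseudocount (0.1), filter, scaling, trend, block, biotype, limma-voom, GC correction (loess span 0.3) and left-out libraries. On simulated log2(FPKM + 1) values for 12678 genes in this comparison, the test recovered 26% of 1.5-fold, 52% of 2-fold and 91% of 4-fold changes. The values were drawn from the mean and within-group spread of each gene, independently for each library. The deviation shared by the replicate 2 libraries was therefore not simulated. The 1.5-fold, 2-fold and 4-fold changes were set in 50, 50 and 100 genes, fewer than the 709 genes called in the data. Of the unchanged genes 8 were called. The members and lists were chosen with earlier results of these data known. Every member is named; values in all 6 libraries are given for members called without the block, then for those with the smallest adjusted p with it, up to 25, and for 5 members (BRCA1, BRCA2, FANCD2, ATM and ATR) whatever their test. From each other list up to 4 genes with the smallest adjusted p are named. p-values measure the spread between these cultures of 1 line.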

Additional observations from a re-analysis of the deposited data

How the results depend on the processing

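With the fit of the report, 4 members, 2 other pathway genes and 709 of all genes were called. The replicate block gave 18 members, 17 other pathway genes and 5096 of all genes. The GC correction gave 19 members, 16 other pathway genes and 4049 of all genes, and with the replicate block 21 members, 19 other pathway genes and 5155 of all genes. Without a filter the counts were 1 member, 1 other pathway gene and 268 of all genes, and among protein-coding genes alone 7 members, 2 other pathway genes and 894 of 10439 genes were called. Of the settings added after seeing the data, leaving out both replicate 2 libraries gave 8 members, 9 other pathway genes and 1803 of all genes, and limma-voom with the replicate block 23 members, 25 other pathway genes and 6145 of all genes. Leaving out 1 library gave 0 to 3 members, 0 to 2 other pathway genes and 2 to 622 of all genes, and a log2 fold change of RBM8A of -2.05 to -1.83, whose call was lost without siNC replicate 3 (adjusted p = 0.0502) and without siRBM8A replicate 3 (adjusted p = 0.0549). FANCE also lost its call without a variance trend and without both replicate 2 libraries. The sign turned with a call for BARD1, at 0.19 with the GC correction (adjusted p = 0.0416), and for H2AFX, at -0.15 with the GC correction and the block (adjusted p = 0.0319). The median log2 fold change of the members was 0.03 to 0.14 over the alternatives. The cause of these differences was not tested. With 3 libraries a group, changes of 2-fold and less were often missed in the simulation. There 26% of 1.5-fold and 52% of 2-fold changes were recovered.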

Other observations

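End joining is the repair route that competes with recombination, and its kinase was lower in siRBM8A. PRKDC, which encodes DNA-PKcs, fell from 33.0 ± 1.66 to 16.8 ± 0.875 FPKM (SD, n = 3 each; log2 fold change -0.93, adjusted p = 0.0103, limma). It stood at 34.3, 31.1 and 33.6 FPKM in the siNC libraries and at 17.2, 15.8 and 17.4 FPKM in the siRBM8A libraries, without overlap. The call was lost without siNC replicate 1, siNC replicate 3 or siRBM8A replicate 3, with adjusted p over the alternatives from 1.97e-09 to 0.0915. The other 8 tested end joining genes were not called without the block, and with it 2 of the 9 rose and 2 fell. Of all tested genes 5.59% were called without the block, and 18.9% rose and 21.3% fell with it. PAXX, which stabilises the joined ends, had a log2 fold change of 0.41 (adjusted p = 0.215), the polymerase gene POLM one of 0.34 (adjusted p = 0.147) and DCLRE1C, the nuclease Artemis, one of 0.17 (adjusted p = 0.329).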
